A study of Homo sapiens with 15 samples.

Results

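HES1 and 7 further genes of the Notch pathway (HES4, HEY1, JAG1, JAG2, NOTCH1, NOTCH2 and NOTCH3) were followed through the response of HK-2 cells to TGF-beta (TGFb). HK-2 is an immortalised human renal proximal tubule line. The 8 genes were found by symbol among the 24880 loci of the expression table. HES1 was chosen from its rise after 1 h of TGFb against mock, where earlier results of these data had placed it first. The other 7 were picked for their place in the pathway with those results known. Values of the 8 genes in that contrast are therefore a description, without a test.

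The 15 libraries of polyadenylated RNA fall into 5 groups of 3. TGFb at 2 ug/ml with FT895, an inhibitor of the histone deacetylase HDAC11, was given for 1 h or 12 h. DMSO, the vehicle, took the place of FT895 beside TGFb at 2 ug/ml in a second pair of groups, also for 1 h or 12 h. Mock cells received PBS and are labelled 0 h, so mock differs from the treated groups in time and vehicle as well as in TGFb. All groups were wild-type HK-2 cells. No group received FT895 without TGFb, and the sources used here give no dose for it. Whether replicate libraries stem from separate cultures is not in the labels, and p-values therefore reflect the spread between these libraries alone, which may be technical.

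Notch receptors are single-pass membrane proteins that are cleaved when a Jagged or Delta ligand on a neighbouring cell binds them. The freed intracellular domain enters the nucleus, joins the DNA-binding protein RBPJ and a Mastermind co-activator, and turns on HES and HEY genes, which encode basic helix-loop-helix repressors. In the kidney the pathway directs nephron segments during development and is active again in injured and fibrotic tubules.

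The promoters of HES1 and HES4 are shown because HES1 had the largest early change among the 8 genes and HES4, of the same family, was called in no comparison. Both come from RefSeq on GRCh38.p14, run 5′ to 3′ along the gene's strand, and cover 250 bases before to 50 bases after the annotated start. HES1 lies at chr3:194135898-194136197 on the plus strand and HES4 at chr1:1000048-1000347 on the minus strand. Capitals mark the letters TGGGAA, the core bound by RBPJ, and CACNAG, the N box that HES proteins bind, on either strand.
HES1: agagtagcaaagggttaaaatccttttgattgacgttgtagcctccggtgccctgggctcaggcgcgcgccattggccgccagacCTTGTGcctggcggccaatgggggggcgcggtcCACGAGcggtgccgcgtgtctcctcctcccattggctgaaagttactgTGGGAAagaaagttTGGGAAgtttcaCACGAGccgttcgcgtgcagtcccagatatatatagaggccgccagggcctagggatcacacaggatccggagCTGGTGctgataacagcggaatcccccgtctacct
HES4: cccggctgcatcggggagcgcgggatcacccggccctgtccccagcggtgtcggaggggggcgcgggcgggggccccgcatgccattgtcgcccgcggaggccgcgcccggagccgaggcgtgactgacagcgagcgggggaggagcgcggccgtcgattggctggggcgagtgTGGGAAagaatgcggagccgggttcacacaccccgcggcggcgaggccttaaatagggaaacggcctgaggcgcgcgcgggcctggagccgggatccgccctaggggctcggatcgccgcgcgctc

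The HES1 window held 2 matches to TGGGAA, at -84 and -70 from the start, and 4 to CACNAG, at -165, -132, -58 and 15. None of these matches overlapped another. Of all 35116 RefSeq promoter windows of this length, 24% held TGGGAA at least once and 3.8% at least 2 times, and 38% held CACNAG. The HES4 window held 1 match to TGGGAA, at -76, and none to CACNAG. Among the 7 of the 8 genes with a window in the table, no other held TGGGAA. JAG1 had CAGAC, the core bound by SMAD proteins, at -1, a motif found in 45.3% of windows, and HES1 had it at -170. JAG2 held the GC-rich SMAD element GGCGCC at 2 places and NOTCH1 at 1, against 19.2% of windows with at least 1. NOTCH1 held 2 overlapping matches to CACNAG, and NOTCH2 and NOTCH3 held 1 each. CANNTG, the E box, was found at 2 places in JAG2, and 68.7% of windows hold it. The windows of NOTCH1 and NOTCH2 do not end inside a transcript of the annotation used for coordinates. A match is a description of letters, not of a bound site.

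**Figure D1:**
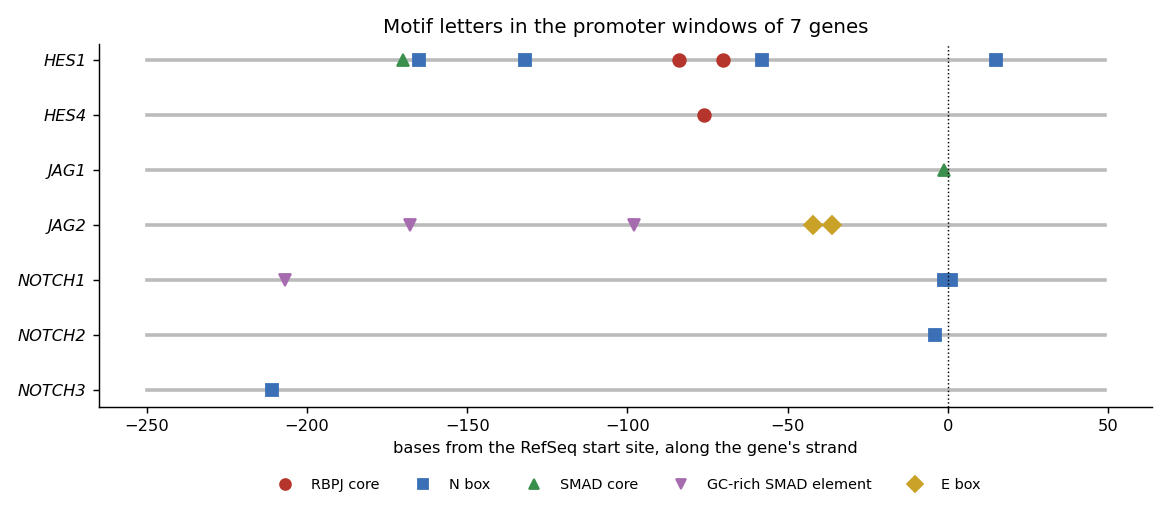
Positions of 5 motifs, searched on both strands, in the promoter windows of 7 genes, in bases from the RefSeq start (x axis) with 1 line per gene. HES1 carries 2 of the 3 matches to the RBPJ core and 4 of the 8 N boxes.

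The measure is the deposited FPKM, fragment numbers corrected for transcript length and library total, from which read depth could not be recovered. Libraries summed to between 386532 and 434520 FPKM and held 11712 to 12023 loci at 1 FPKM or more. Of 19 renal epithelial markers 10 reached the expression filter, among them PAX8, GGT1 and the keratins KRT8 and KRT18. LRP2, a defining gene of the proximal tubule, and the epithelial cadherin CDH1 were listed at 0 in every library, and CUBN, AQP1, SLC34A1, HNF4A and ANPEP stayed at or under 0.465 FPKM. No endothelial marker of 8 reached the filter, 2 of 7 fibroblast and pericyte markers did (LUM and RGS5), and 1 of 6 leukocyte markers did (CSF1R). Renal epithelial markers summed to 861 to 927 FPKM under TGFb + FT895, 881 to 965 under TGFb and 805 to 840 in mock. The part of these markers in the results was not tested.

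Replicate 1 of TGFb 1 h differed from the other libraries of its group. Deviations were taken for each library from the mean of the other libraries of its group. Their SD over genes was 0.317 on the log2 scale in this library, against 0.16 to 0.234 in the other 14 libraries. The 1154 genes with the longest transcripts (at least 7606.5 bases) had a median deviation of -0.275 in TGFb 1 h replicate 1, and all other genes 0.007. Ligand and receptor genes were low in it. The deviation was -0.97 for NOTCH2, -0.69 for NOTCH1 and -0.39 for NOTCH3, whose longest transcripts pass that length. It was -0.42 for JAG2 and -0.4 for JAG1, whose longest transcripts (5835 and 5940 bases) do not. For HES1 it was 0.09, for HEY1 -0.02 and for HES4 -0.01. Changes of the ligands and receptors that use this library are given with and without it.

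Values were tested as log2(FPKM + 1) in limma, 1 model over all 15 libraries and 12467 loci with at least 1 FPKM in at least 3 libraries. Calls were made at an adjusted p (Benjamini-Hochberg) under 0.05. All log2 changes below are on this scale, which understates the change of low genes such as HEY1. All 8 genes passed the filter, HEY1 only through the treated groups, since all 3 mock libraries were under 1 FPKM. In bulk RNA, fewer expressing cells and less RNA per cell cannot be told apart. Comparisons with mock share the mock libraries, and comparisons of 12 h with 1 h share libraries with those of FT895. Those that use the mock or TGFb 1 h libraries reuse values known when the 8 genes were picked. Any p-value printed for the 8 genes there adds no support beyond the values themselves.

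HES1, a repressor that also binds its own promoter, was highest at 1 h and kept a smaller excess at 12 h. It measured 6.62, 5.86 and 6.85 FPKM in mock. HES1 at 1 h measured 90.8, 88.2 and 87.2 FPKM under TGFb + FT895 and 87, 83.6 and 79.4 FPKM under TGFb. HES1 at 12 h measured 29.5, 23.5 and 24.2 FPKM under TGFb + FT895 and 22.4, 25.2 and 23 FPKM under TGFb. Every treated library lay above every mock library, every 1 h library lay above every 12 h library, and the groups overlapped only between both treatments at 12 h. The mean at 1 h under TGFb was 83.3 ± 3.8 FPKM, against 6.44 ± 0.521 FPKM in mock (SD, n = 3 each), a ratio of 12.9 and a log2 change of 3.50, the value HES1 was chosen on. HES1 lies at chromosome 3, 194136145 to 194138732, plus strand (GENCODE v29, GRCh38), and codes for protein, as do the other 7.

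Under TGFb + FT895 at 1 h, HES1 averaged 88.7 ± 1.84 FPKM, 13.8 times its mock mean (log2 change 3.59). At 12 h its log2 change from mock was 1.84 under TGFb + FT895 (25.7 ± 3.27 FPKM) and 1.72 under TGFb (23.5 ± 1.47 FPKM). These comparisons use the mock libraries on which HES1 was chosen, so they are given without a test. The comparison of 12 h with 1 h under TGFb + FT895 uses none of those libraries: HES1 fell to 0.29 of its 1 h mean (log2 change -1.75, adjusted p 6.69e-10). Under TGFb the log2 change from 1 h was -1.78, given without a test because HES1 was chosen on those 1 h libraries.

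HEY1, a related repressor and a common Notch target, had the same order of groups at a lower level. It measured 0.828, 0.832 and 0.75 FPKM in mock. HEY1 at 1 h measured 4.93, 5.57 and 4.23 FPKM under TGFb + FT895 and 4.61, 4.54 and 4.83 FPKM under TGFb. HEY1 at 12 h measured 1.8, 1.38 and 2.05 FPKM under TGFb + FT895 and 2.01, 1.46 and 1.5 FPKM under TGFb. All 12 treated libraries lay above all mock libraries, and both treatments overlapped at each time. The TGFb mean at 1 h was 4.66 ± 0.153 FPKM, against 0.803 ± 0.0464 FPKM in mock, a ratio of 5.8, given without a test. Under TGFb + FT895 at 1 h HEY1 rose 6.11-fold over mock (log2 change 1.71, adjusted p 6.72e-08). It remained above mock at 12 h under TGFb + FT895 (log2 change 0.60, adjusted p 0.000553) and under TGFb (log2 change 0.55, adjusted p 0.001). HEY1 passed the filter only through treated libraries, so its p-values against mock add no support beyond the values themselves. From 1 h to 12 h its log2 change was -1.11 under TGFb + FT895 (adjusted p 1.76e-06). Under TGFb it was -1.10, given without a test because HEY1 was picked with results of those 1 h libraries known. Across the 15 libraries HES1 and HEY1 had a Pearson correlation of 0.966 on the log2 scale, a description over libraries that share the 5 group means. HEY1 lies at chromosome 8, 79764010 to 79767863, minus strand.

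**Figure D2:**
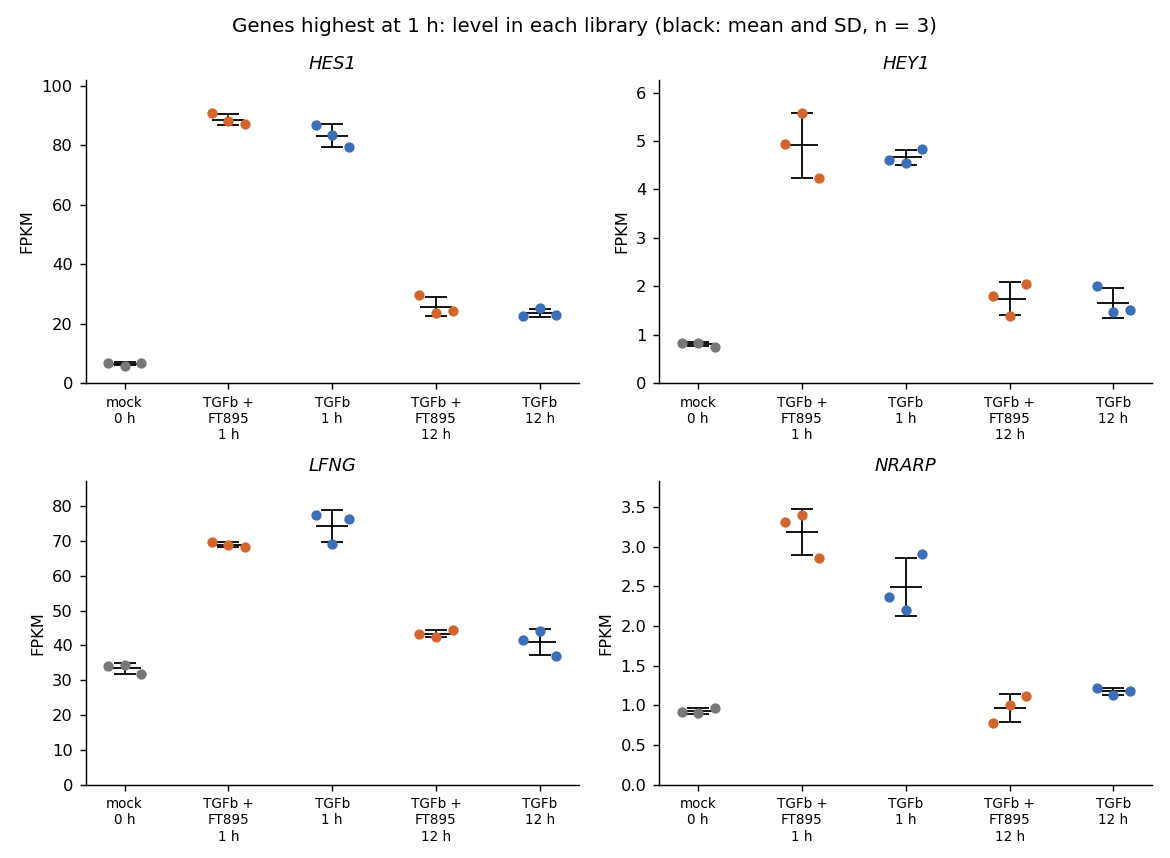
FPKM in each library (points) with the mean and SD of 3 libraries (black) for HES1, HEY1, LFNG and NRARP, with mock and then both treatments at 1 h and 12 h along the x axis and an axis from 0 for each gene. All 4 genes have their highest group means at 1 h under both treatments.

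HES4, a HES family repressor present in humans but not in mice, showed no called change. It measured 5.96, 5.73 and 5.67 FPKM in mock. HES4 at 1 h measured 9.1, 5.99 and 7.37 FPKM under TGFb + FT895 and 5.91, 6.79 and 5.19 FPKM under TGFb. HES4 at 12 h measured 7.47, 4.9 and 6.47 FPKM under TGFb + FT895 and 5.12, 4.15 and 5.72 FPKM under TGFb. Neighbouring groups in the order of means all overlapped, and the spread was widest under FT895, with a CV of 20.9% at 1 h and 20.7% at 12 h, against 2.64% in mock. Adjusted p-values against mock were 0.392 at 1 h and 0.691 at 12 h under TGFb + FT895 and 0.34 at 12 h under TGFb. HES4 lies at chromosome 1, 998962 to 1000172, minus strand.

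JAG1, the main ligand by level in these cells, moved late. It measured 46.8, 44.4 and 46.3 FPKM in mock. JAG1 at 1 h measured 46.2, 49.5 and 48.9 FPKM under TGFb + FT895 and 35.9, 49.1 and 46 FPKM under TGFb. JAG1 at 12 h measured 157, 150 and 151 FPKM under TGFb + FT895 and 148, 155 and 149 FPKM under TGFb. The 1 h groups overlapped mock, the 6 libraries of 12 h all held 148 FPKM or more, and the other 9 held 49.5 FPKM or less. JAG1 rose 3.33-fold over mock at 12 h under TGFb + FT895 (log2 change 1.71, adjusted p 7.96e-10) and 3.28-fold under TGFb (log2 change 1.69, adjusted p 9.27e-10). From 1 h to 12 h the log2 change was 1.64 under TGFb + FT895 (adjusted p 2.04e-09). Under TGFb it was 1.77 (1.642 without TGFb 1 h replicate 1), given without a test. At 1 h under TGFb + FT895 the log2 change from mock was 0.07 (adjusted p 0.794). JAG1 lies at chromosome 20, 10637684 to 10673999, minus strand. An antisense gene overlaps it in the annotation, and strand is not stated, so reads of the pair cannot be told apart.

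JAG2, a second Jagged ligand at chromosome 14, 105140981 to 105168824, minus strand, was lower at 12 h. It measured 5.53, 4.98 and 4.78 FPKM in mock. JAG2 at 1 h measured 5.72, 4.73 and 5.35 FPKM under TGFb + FT895 and 3.94, 5.58 and 5.63 FPKM under TGFb. JAG2 at 12 h measured 3.97, 4.26 and 4.07 FPKM under TGFb + FT895 and 3.82, 4.09 and 3.61 FPKM under TGFb. The 12 h libraries all lay below mock and overlapped the 1 h group only through TGFb 1 h replicate 1. Its fall was called at 12 h under TGFb (log2 change -0.33, adjusted p 0.0205), and under TGFb + FT895 the change of -0.26 had an adjusted p of 0.0671. Against 1 h the fall was called under TGFb + FT895 (-0.29, adjusted p 0.037). Under TGFb the change was -0.31 (-0.45 without TGFb 1 h replicate 1), given without a test. These calls were lost under several settings: against mock, the adjusted p under TGFb was 0.0854 if mock replicate 1 was left out, 0.0727 if TGFb 12 h replicate 3 was, and 0.0542 with median-of-ratios scaling. Under TGFb + FT895 it was 0.00998 without TGFb 1 h replicate 1. For 12 h against 1 h under TGFb + FT895, p was 0.133 without 1 h replicate 1, 0.0873 without 1 h replicate 3, and 0.0995, 0.0591 and 0.083 without each 12 h library in turn.

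Together JAG1, JAG2, DLL1, DLL3 and DLL4, the 5 canonical ligands, summed to 51.8 ± 1.83 FPKM in mock. At 1 h the sum was 54.6 ± 1.03 FPKM under TGFb + FT895 and 49.6 ± 8.11 FPKM under TGFb. At 12 h it was 158 ± 4.07 FPKM under TGFb + FT895 and 155 ± 3.83 FPKM under TGFb. JAG1 made up 88.2 to 88.5% of the sum in mock and at 1 h on average, 96.9% at 12 h under TGFb + FT895 and 97% under TGFb. DLL1 and DLL4 stayed at or under 0.109 FPKM in every library, and DLL3 reached 1.3 FPKM at most.

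**Figure D3:**
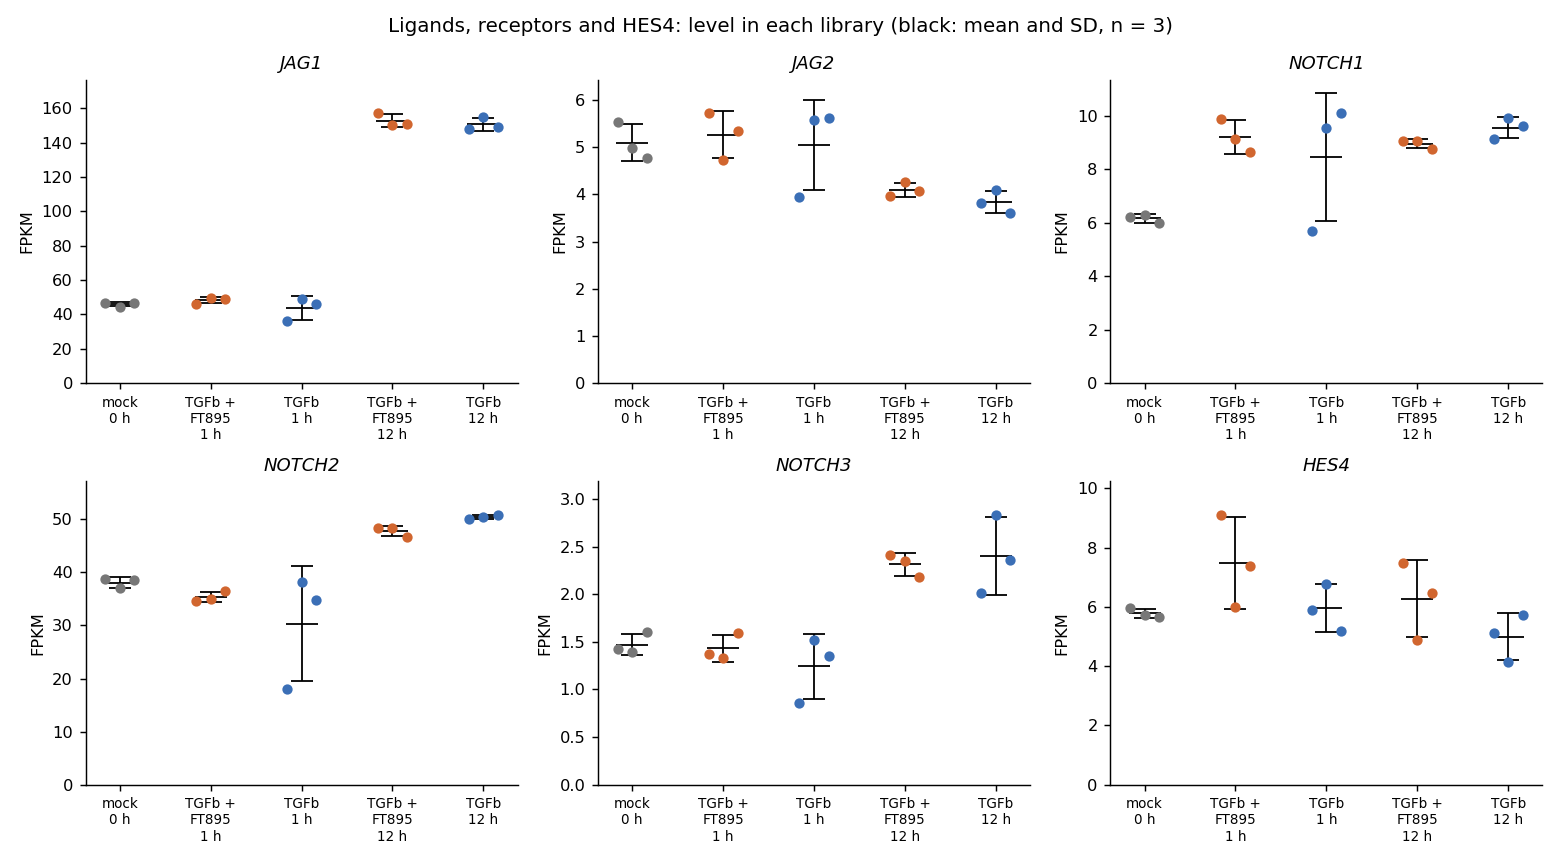
FPKM in each library (points) with the mean and SD of 3 libraries (black) for the ligands JAG1 and JAG2, the receptors NOTCH1, NOTCH2 and NOTCH3, and HES4, with an axis from 0 for each gene. JAG1 stands at 148 to 157 FPKM in the 12 h libraries, and the lowest NOTCH2 point, 18.1 FPKM, is TGFb 1 h replicate 1.

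NOTCH2 was the receptor with the highest FPKM, with 75.3 to 83.2% of the summed FPKM of the 4 receptors in the group means. It measured 38.8, 37 and 38.5 FPKM in mock. NOTCH2 at 1 h measured 34.6, 35 and 36.5 FPKM under TGFb + FT895 and 18.1, 38.2 and 34.8 FPKM under TGFb. NOTCH2 at 12 h measured 48.3, 48.3 and 46.7 FPKM under TGFb + FT895 and 50.1, 50.4 and 50.8 FPKM under TGFb. All 12 h libraries lay above all mock and 1 h libraries. Against mock the log2 change was 0.32 under TGFb + FT895 (adjusted p 0.181) and 0.39 under TGFb (adjusted p 0.0954). Without TGFb 1 h replicate 1, which enters the shared spread, the adjusted p was 2.63e-05 under TGFb + FT895 and 3.44e-06 under TGFb. A fit on only the groups compared, which does not use that library, gave 0.000265 under TGFb + FT895 and 0.000124 under TGFb, and without TGFb 1 h replicate 2 the value under TGFb was 0.049. From 1 h to 12 h the log2 change was 0.42 under TGFb + FT895 (adjusted p 0.0742) and 0.78 under TGFb, the latter given without a test. Without TGFb 1 h replicate 1 the adjusted p was 1.96e-06 under TGFb + FT895 (0.0364 without TGFb 1 h replicate 2), and the TGFb change was 0.457. NOTCH2 lies at chromosome 1, 119911553 to 120069626, minus strand, and has near-identical copies. The copy NOTCH2NLA averaged 4.35 to 5.43 FPKM per group, so how reads were split between them is uncertain.

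NOTCH1, at chromosome 9, 136494433 to 136545786, minus strand, measured 6.22, 6.31 and 5.99 FPKM in mock. NOTCH1 at 1 h measured 9.89, 9.13 and 8.64 FPKM under TGFb + FT895 and 5.7, 9.57 and 10.1 FPKM under TGFb. NOTCH1 at 12 h measured 9.06, 9.07 and 8.78 FPKM under TGFb + FT895 and 9.15, 9.93 and 9.62 FPKM under TGFb. Every treated library but TGFb 1 h replicate 1 lay above all mock libraries. NOTCH1 rose at 12 h under TGFb + FT895 (log2 change 0.47, adjusted p 0.0128) and under TGFb (log2 change 0.56, adjusted p 0.00453). At 1 h under TGFb + FT895 the log2 change was 0.51 (adjusted p 0.0531). It was 3.28e-05 without TGFb 1 h replicate 1, 0.0423 without replicate 2 and 0.0293 without replicate 3 of that group. The change between 1 h and 12 h was -0.03 under TGFb + FT895 (adjusted p 0.862). Under TGFb it was 0.19 (-0.037 without TGFb 1 h replicate 1), given without a test. An antisense gene also overlaps NOTCH1.

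NOTCH3, at chromosome 19, 15159038 to 15200981, minus strand, was the lowest of the 3 receptors and measured 1.42, 1.39 and 1.6 FPKM in mock. NOTCH3 at 1 h measured 1.37, 1.33 and 1.59 FPKM under TGFb + FT895 and 0.859, 1.52 and 1.35 FPKM under TGFb. NOTCH3 at 12 h measured 2.41, 2.35 and 2.18 FPKM under TGFb + FT895 and 2.01, 2.83 and 2.36 FPKM under TGFb. All 12 h libraries lay above all others. NOTCH3 rose at 12 h over mock under TGFb + FT895 (log2 change 0.43, adjusted p 0.00865) and under TGFb (0.46, adjusted p 0.00536). It rose over 1 h under TGFb + FT895 (0.45, adjusted p 0.00606). Under TGFb the change from 1 h was 0.60 (0.475 without TGFb 1 h replicate 1), given without a test. NOTCH4, the remaining receptor, stayed at or under 0.069 FPKM.

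In the contrast of TGFb at 1 h with mock, 8.98% of all tested loci were called, and the 8 genes were not tested. That share was 3.54% without mock replicate 1, 4.4% without mock replicate 2 and 3.34% without mock replicate 3, 32% with library weights and 2.99% in a fit on only the groups compared. The log2 change there was 1.65 for HEY1, 0.36 for NOTCH1, 0.03 for HES4, -0.02 for JAG2, -0.08 for JAG1, -0.15 for NOTCH3 and -0.39 for NOTCH2. Without TGFb 1 h replicate 1 it was 0.595 for NOTCH1, 0.117 for JAG2, 0.052 for JAG1, -0.02 for NOTCH3 and -0.062 for NOTCH2. HES1 is left out of the calls against mock below, because it was chosen on the mock libraries. Of the other genes only HEY1 was called under TGFb + FT895 at 1 h. There 3.82% of all tested loci were called (6.63% without TGFb 1 h replicate 1). At 12 h against mock under TGFb + FT895, HEY1, JAG1, NOTCH1 and NOTCH3 were called higher. HES4, JAG2 and NOTCH2 were not called. Among all loci 37.5% were called there (14.7% higher, 22.7% lower). Under TGFb the same genes were called higher and JAG2 lower, and HES4 and NOTCH2 were not called. Among all loci 38.6% were called (14.2% higher, 24.5% lower). These calls against mock include HEY1, which passed the filter only through the treated groups.

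From 1 h to 12 h, 5 of 8 were called under TGFb + FT895 (2 higher and 3 lower), beside 38.2% of all loci. Under TGFb the changes of the 8 genes are given without a test, because they were picked with results of the 1 h libraries known. JAG1 and NOTCH3 rose over this interval under both treatments, and HES1 and HEY1 fell under TGFb + FT895.

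No difference between TGFb + FT895 and TGFb passed the test for any of the 8 genes. At 1 h, TGFb + FT895 against TGFb had 0 of 8 called in limma (0 at an unadjusted p under 0.05), beside 0.0722% of all tested loci. At 12 h it was again 0 of 8 (0 unadjusted), beside 0.016% of all loci (0.353% without TGFb 1 h replicate 1). For HES1 the log2 difference was 0.09 at 1 h (95% interval -0.08 to 0.26, adjusted p 0.631) and 0.12 at 12 h (-0.05 to 0.29, adjusted p 0.926). The 3 HES1 values at 1 h under TGFb + FT895 (87.2 to 90.8 FPKM) lay just above those under TGFb (79.4 to 87 FPKM). For HEY1 it was 0.06 (-0.17 to 0.29) at 1 h and 0.05 (-0.19 to 0.28) at 12 h, and for JAG1 0.15 (-0.03 to 0.33) at 1 h and 0.02 (-0.16 to 0.20) at 12 h. HES4 had the widest shift that pointed the same way at both times, 0.28 (-0.04 to 0.59) at 1 h and 0.27 (-0.04 to 0.59) at 12 h. The other differences at 1 h were 0.28 for NOTCH2 (-0.10 to 0.66), 0.14 for NOTCH1 (-0.15 to 0.43), 0.13 for NOTCH3 (-0.12 to 0.37) and 0.06 for JAG2 (-0.16 to 0.28). Without TGFb 1 h replicate 1 they were -0.042 for NOTCH2, -0.086 for NOTCH1, -0.004 for NOTCH3 and -0.079 for JAG2, and JAG1 had 0.019. With library weights HES4 alone of the 8 was called at 1 h (0.44, adjusted p 0.037), where 15.8% of all loci were called. The FT895 difference at 12 h minus that at 1 h was called for 0 of 8 genes (0 unadjusted; adjusted p 0.725 to 0.997), beside 0.168% of all loci. These intervals do not show that FT895 had no effect on the genes.

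**Figure D4:**
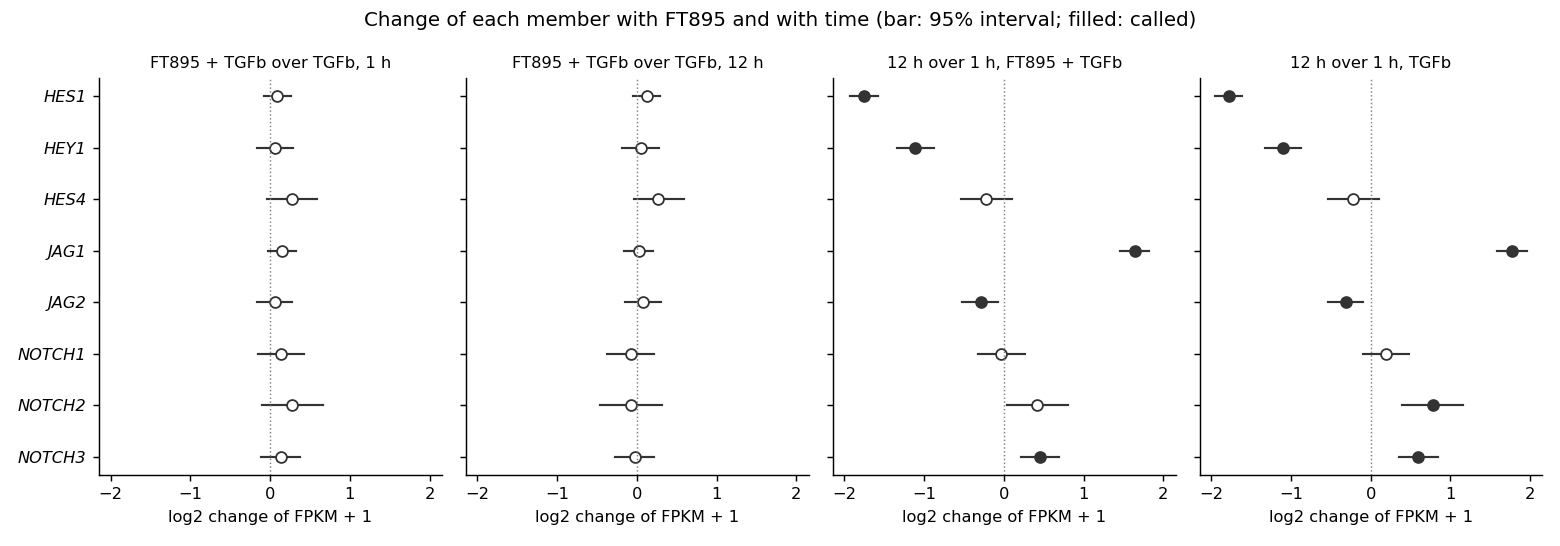
Log2 change of FPKM + 1 (x axis) with its 95% interval for the 8 genes, for TGFb + FT895 over TGFb at 1 h and 12 h and for 12 h over 1 h under each treatment; filled points passed an adjusted p of 0.05. None of the FT895 differences is filled, and HES1 and JAG1 lie farthest from 0, on opposite sides, over time. Some genes are drawn filled for 12 h over 1 h under TGFb, though the text gives all changes of that panel without a test.

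Beside the 8 genes, 64 further pathway genes were listed by role, of which 45 passed the filter. At 1 h against mock, 5 of the 45 (11.1%) were called under TGFb + FT895 and 5 (11.1%) under TGFb, all higher. Both counts include NRARP, which stayed at or under 0.968 FPKM in mock and passed the filter only through treated libraries. Among all loci 3.82% were called under TGFb + FT895 (2.61% higher) and 8.98% under TGFb (3.7% higher). Under TGFb + FT895 the log2 changes were 1.12 for NRARP, 1.11 for HES6, 1.02 for LFNG, 0.52 for TLE3 and 0.36 for FURIN. Under TGFb they were 0.85 for NRARP, 1.10 for HES6, 1.13 for LFNG, 0.49 for TLE3 and 0.31 for FURIN. The median over the 45 was 0.02 under TGFb + FT895 and -0.05 under TGFb, beside 0.016 over all loci under TGFb + FT895 and -0.028 under TGFb.

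LFNG, a glycosyltransferase that modifies Notch receptors, averaged 33.4 ± 1.53 FPKM in mock. At 1 h it averaged 69 ± 0.821 FPKM under TGFb + FT895 and 74.2 ± 4.54 FPKM under TGFb, and at 12 h 43.4 ± 1.07 FPKM under TGFb + FT895 and 40.9 ± 3.71 FPKM under TGFb. NRARP, an inhibitor of the Notch intracellular domain, averaged 0.928 ± 0.0351 FPKM in mock, 3.19 ± 0.288 FPKM at 1 h under TGFb + FT895 and 2.49 ± 0.375 FPKM at 1 h under TGFb. NRARP was back at 0.969 ± 0.176 FPKM at 12 h under TGFb + FT895 and 1.18 ± 0.0416 FPKM under TGFb, and passed the filter through treated libraries. HES6, which in mice opposes HES1, instead rose further with time. It averaged 2.05 ± 0.193 FPKM in mock, 5.59 ± 0.641 FPKM at 1 h under TGFb + FT895 and 5.58 ± 0.897 FPKM under TGFb, followed at 12 h by 9.22 ± 0.909 FPKM under TGFb + FT895 and 11.1 ± 0.604 FPKM under TGFb.

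At 12 h against mock, 22 of the 45 (48.9%) were called under TGFb + FT895 (12 higher, 10 lower) and 19 (42.2%) under TGFb (12 higher, 7 lower), near the 37.5% and 38.6% of all loci given above for the same comparisons. Under TGFb + FT895 the largest were HES6 (1.74), FURIN, the protease that matures the receptor (1.33), the co-repressor TLE3 (0.92) and the ligand ubiquitin ligase NEURL1B (0.77). Under TGFb they were HES6 (1.98), FURIN (1.29), NEURL1B (0.88) and TLE3 (0.87). The ligand ubiquitin ligases MIB1 and MIB2 also rose, with log2 changes of 0.31 and 0.33 under TGFb + FT895 and of 0.34 and 0.35 under TGFb. NEURL1B reached 1 FPKM in the 6 libraries of 12 h and in no other, and so passed the filter only where it is high. None of the 7 tested ADAM and gamma-secretase genes rose, while 4 fell under TGFb + FT895 and 2 (28.6%) under TGFb. Among all loci 22.7% fell under TGFb + FT895 and 24.5% under TGFb. RBPJ, named after its values were seen, measured 32.1 to 34.4 FPKM at 12 h under TGFb + FT895 and 32.1 to 35.9 FPKM under TGFb, against 23.5 to 26.9 FPKM in mock (log2 change under TGFb 0.42, adjusted p 0.000185).

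From 1 h to 12 h, 22 of 45 were called under TGFb + FT895 (11 higher, 11 lower) and 19 under TGFb (11 higher, 8 lower). These are 48.9% under TGFb + FT895, beside 38.2% of all loci, and 42.2% under TGFb, beside 41% of all loci. Under TGFb + FT895 the largest were NRARP (-1.09), FURIN (0.96), NEURL1B (0.72) and LFNG (-0.66). Under TGFb they were FURIN (0.99), HES6 (0.88), LFNG (-0.85) and MAML2 (0.82), a Mastermind co-activator. FT895 against TGFb alone called 0 of 45 in limma at 1 h (3 at an unadjusted p under 0.05) and 0 at 12 h (2 unadjusted). Over all loci 13.8% had an unadjusted p under 0.05 at 1 h and 6.15% at 12 h.

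**Figure D5:**
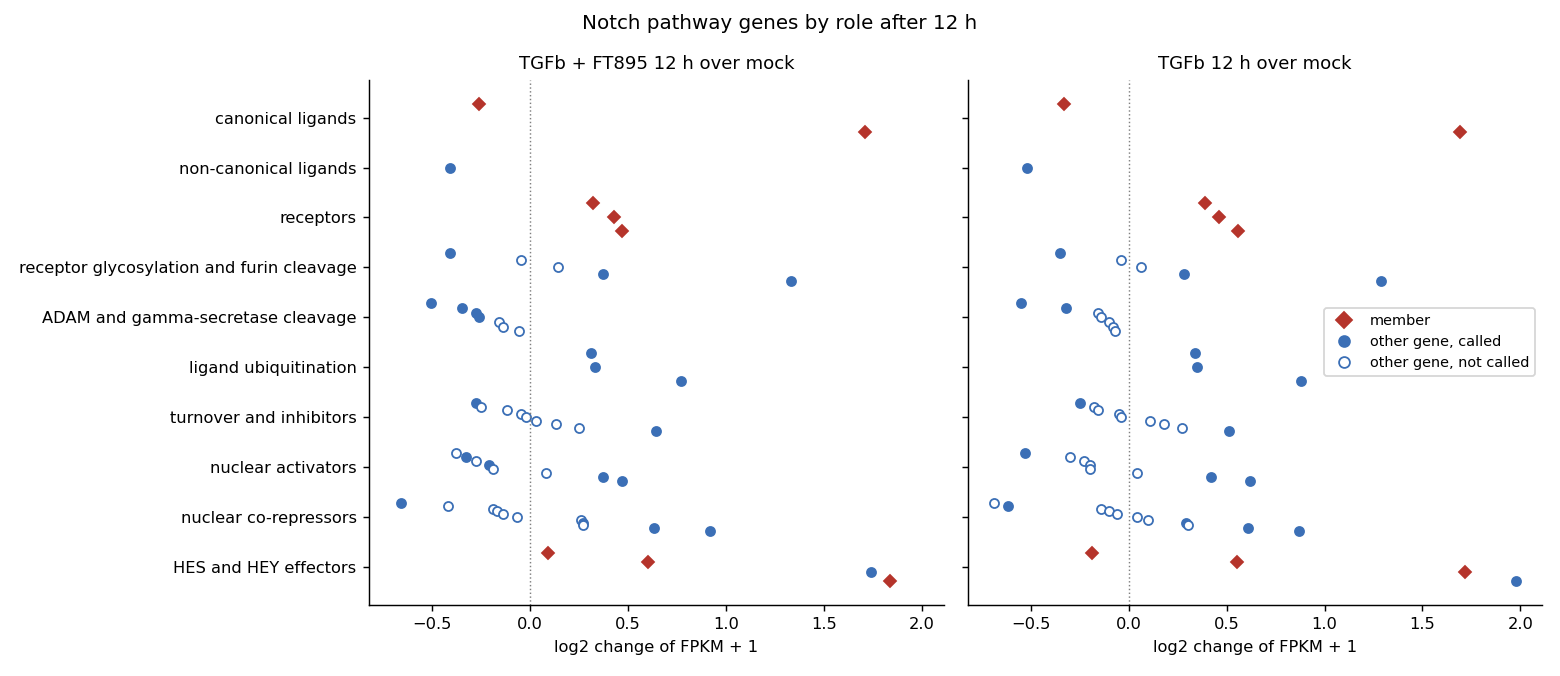
Log2 change of FPKM + 1 at 12 h over mock (x axis) under TGFb + FT895 and under TGFb for the 8 genes (diamonds) and the 45 other tested pathway genes (circles, filled where called), in rows by role. JAG1, HES1, HES6 and FURIN lie past 1 in both panels, and the ADAM and gamma-secretase genes all lie below 0. The median over all tested loci also lies below 0, at -0.068 under TGFb + FT895 and -0.08 under TGFb.

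The genes whose pattern over the 15 libraries was most like that of HES1, by Pearson correlation on the log2 scale among 8497 named genes with a group mean of at least 5 FPKM, were TRIB1 (0.987), SMAD7 (0.981), CSRNP1 (0.979), PLK3 (0.978), MAFK (0.975), IER2 (0.974), CDKN1A (0.974) and SIK1B (0.974). SIK1B has a near-identical copy, SIK1, so its reads are uncertain. SMAD7, the inhibitory SMAD, averaged 7.22 FPKM in mock, 35.7 FPKM at 1 h under TGFb + FT895 and 35.6 FPKM under TGFb, and at 12 h 19.6 FPKM under TGFb + FT895 and 20.8 FPKM under TGFb. For HEY1 they were ID3 (0.981), LFNG (0.976) and KLF10 (0.974). For JAG1 they were ADAM19 (0.999), SLCO2A1 (0.998) and CDH2 (0.998). For NOTCH3 they included TBC1D16 (0.973) and ZMIZ1 (0.97), and for NOTCH2 RNF213 (0.985), MTOR (0.984) and CIT (0.984). For NOTCH1 they were LRRC8A (0.941), BCL9L (0.927) and SESN2 (0.925), and for JAG2 they included U2AF2 (0.957) and FBXL14 (0.94). HES4 had no pattern as close, with DOHH at 0.853, CST3 at 0.807 and UBE2D2 at 0.775. These correlations rest on 5 group means and on libraries that share the deviation of TGFb 1 h replicate 1. Among the 8 genes, JAG1 and NOTCH3 had 0.929, NOTCH2 and NOTCH3 0.898, and JAG1 and JAG2 -0.737.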

How the data were processed

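Polyadenylated RNA of HK-2 cells was sequenced in 15 libraries, 5 groups of 3. Per the submitters' processing notes, HISAT2, StringTie and GRCh38 were used; the sources used here name no versions, annotation or strand. The authors deposited FPKM per locus and library. Of 24880 loci, 19974 carry an Ensembl identifier, and all of those matched GENCODE v29, the source of coordinates. Depth was looked for in low values (FPKM above 0 and under 0.1): over 15 pairs of libraries, log2 ratios in bins of 0.02 showed no steps (at most 1.54 to 3.29% per bin), and no counting interval is given.

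Values were analysed as log2(FPKM + 1), pseudocount 1, after a filter of at least 1 FPKM in at least 3 libraries. A limma 3.58.1 model (R 4.3.3; 1 mean per group, eBayes with a trend, 10 residual degrees of freedom) gave 9 two-sided comparisons, with Benjamini-Hochberg adjustment over 12467 loci within each, and was tested on simulated data. The 8 genes and the gene lists were chosen with earlier results of these data known. Of the pathway list, up to 4 called genes of largest change per comparison are named (all where 5 were called), with RBPJ and 1 example per likeness list added afterwards; likeness names the 8 closest genes for HES1 and 3 for each other gene, of which a few are not reported here. Alternatives were other pseudocounts, no filter, other scalings, library weights, a fit on only the groups compared, a replicate block and leaving out each library.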

Additional observations from a re-analysis of the deposited data

How the results depend on the processing

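Every called change of HES1, HEY1 and JAG1 kept its direction and its call under the alternatives run, and the counts of called members kept within 1.5 times except where given. Library weights lower the weight of TGFb 1 h replicate 1. With them 12 of the 45 pathway genes were called for TGFb 1 h against mock, beside 32% of all loci. They gave 2 for TGFb + FT895 against TGFb at 1 h (with 1 of the 8 genes), beside 15.8% of all loci. For TGFb 12 h against 1 h they gave 29, beside 52.8% of all loci. A fit on only the groups compared gave 3 for TGFb 1 h against mock, beside 2.99% of all loci. At 1 h of TGFb over mock, HEY1 was 2.398 with a pseudocount of 0.1 and 1.985 with 0.5, against 1.65 with 1, and HES1 was 3.675 with 0.1. Reversals concerned changes that were not called. For TGFb + FT895 against TGFb at 1 h, HEY1 was -0.026 and JAG2 -0.022 with quantile normalization, and JAG2 -0.063 and NOTCH1 -0.075 with library weights. NOTCH1 at 12 h against 1 h was -0.037 under TGFb with library weights, and under TGFb + FT895 0.044 after median-of-ratios scaling, 0.061 after quantile normalization. The cause was not tested.

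Leaving out each library in turn gave these ranges. For TGFb + FT895 against TGFb at 1 h, HEY1 ran from -0.022 to 0.142, JAG2 from -0.079 to 0.133, NOTCH1 from -0.086 to 0.278, NOTCH2 from -0.042 to 0.478 and NOTCH3 from -0.004 to 0.215. At 12 h, HEY1 ran from -0.034 to 0.143, JAG1 from -0.001 to 0.041 and NOTCH3 from -0.113 to 0.059. Against mock under TGFb + FT895, JAG2 ran from -0.014 to 0.102 and NOTCH3 from -0.07 to 0.013 at 1 h, and HES4 from -0.032 to 0.229 at 12 h. NOTCH1 at 12 h against 1 h ran from -0.037 to 0.328 under TGFb and from -0.075 to 0.013 under TGFb + FT895. JAG2 lost its calls most often: at 12 h against 1 h under TGFb + FT895, its adjusted p was 0.103 after median-of-ratios scaling and 0.0756 after quantile normalization.

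Replicate numbers did not pair the libraries: over 30 pairs of same-numbered libraries the correlation of deviations ran from -0.137 to 0.113, with 2 over 0.1, and 11 were highest for their own number. With a replicate block, JAG2 at 12 h against 1 h under TGFb + FT895 was -0.295 with an adjusted p of 0.054. There 4 of 8 genes were called, beside 37.5% of all loci. Scaling moved the direction of calls over all loci: for TGFb 12 h against mock, 36.7% were higher as deposited and 52.3% with median-of-ratios scaling, with 63.2% and 66.7% for the pathway list.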
